A study of Mus musculus with 536 samples.

Results

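The transcript levels described here come from 12 blood arrays, out of 536 in the series, that set mice given lipopolysaccharide (LPS) and no radiation against mice given neither. The arrays were chosen by their titles alone, from a small treatment set of 50 mice. Mice 1, 3, 6, 7, 8 and 9 were titled as 0 cGy with LPS at 6 hr, and mice 1, 2, 3, 8, 9 and 10 as 0 cGy with no treatment at 6 hr. All were C57BL/6 mice of 10 to 12 weeks, and each array held RNA of 1 mouse. The protocol covers female and male mice, and the labels give the sex of these 12 as unknown. Blood was taken by terminal cardiac puncture into an RNA-preserving fluid, and its globin transcripts were depleted before hybridisation to Affymetrix mouse arrays. The dose and route of LPS, and the interval between its injection and the bleed, are not given in the sources used here. Mice of 3 further kinds served as comparisons. In the same set, 6 unirradiated mice received GCSF, the growth factor that makes bone marrow produce and release neutrophils. Others of that set received 150 cGy with LPS (5) or without treatment (6), or 600 cGy with LPS (6) or without treatment (5), as single total body doses from a caesium source. A separate sex and treatment set held 3 female and 5 male mice given LPS at 0 cGy and 5 female and 5 male untreated mice at the same time. The fits also held mice that no comparison reads. These were small-set mice given GCSF with 150 or 600 cGy, and mice of a further agent at 0 cGy in the other set. In the main fits they entered only through the shared estimate of spread.

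LPS is a component of the outer membrane of gram-negative bacteria. In mice it is handed by LPS-binding protein and Cd14 to the receptor Tlr4 and its partner Ly96, and the receptor signals through an adaptor arm that activates NF-kB and another that induces type I interferon. NF-kB drives cytokine and chemokine genes, while interferon drives a broad set of antiviral genes through the transcription factors that bind interferon-stimulated response elements. In blood, endotoxin is known to draw young neutrophils out of the bone marrow and to lower the numbers of circulating monocytes and lymphocytes. In bulk blood RNA, fewer cells of a type and less RNA per cell cannot be told apart, and this holds for every cell type list given here.

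Values are log2 RMA signals, on which a difference of 1 is a 2-fold change. Signals of different genes were not set against each other, because each probe set has its own response. Within the LPS group each array correlated with the others of its group at a median r of 0.973 to 0.987 over genes. Untreated mice 1, 2, 3, 8 and 9 lay at 0.965 to 0.984, and the library labelled untreated mouse 10 at 0.944. That library correlated at 0.953 with the mean of the other untreated 0 cGy mice, but at 0.984 with the mean of untreated 150 cGy mice and 0.981 with that of untreated 600 cGy mice. The other 5 untreated mice lay at 0.974 to 0.993 with each other, 0.972 to 0.979 with the 150 cGy mean and 0.965 to 0.975 with the 600 cGy mean. In mouse 10, 17 of 24 measured p53 targets, genes switched on by DNA damage, exceeded all other untreated 0 cGy mice, by a median of 1.02 over the list, and 17 of 24 lay within the range of untreated 600 cGy mice. Its Cdkn1a signal, the p53 target that halts the cell cycle, was 10.47 against 7.03 to 7.47 in the others, and 18 of its 20 B cell genes were below all of them. Other lists were mixed in how many genes lay within the range of untreated 600 cGy mice. The counts were 15 of 17 mature neutrophil, 9 of 13 acute-phase, 6 of 20 B cell and 1 of 16 hepatocyte genes. The share of all genes for which mouse 10 lay beyond every other untreated mouse was not computed. Such counts, here and for mature neutrophil genes further on, therefore have no background to read them against. The label was kept, and results are given with and without this mouse.

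Transcripts of liver cells also differed between these mice. The albumin gene Alb read 5.24 to 5.95 in the LPS mice. In the untreated mice it read 5.02 in mouse 1, 5.56 in mouse 9, 7.88 in mouse 8, 10.99 in mouse 3, 11.05 in mouse 2 and 13.39 in mouse 10. None of 16 hepatocyte genes passed the test, at a median difference of -1.26, or -0.73 without mouse 10, and the cause of the spread was not tested. Muscle genes (12 measured) and genes of endothelium and fibroblasts (12 measured) did not pass either, except Col1a2 (0.79) without mouse 10. The red cell gene Alas2 (14.11 to 14.48), the neutrophil gene S100a8 (11.97 to 14.10) and the B cell gene Ms4a1 (8.82 to 12.15) were strongly detected in all 12 mice. Xist, transcribed from the inactive X chromosome, read 10.77 to 12.49 in the 12 mice, against 5.62 to 7.61 in the 10 male mice of the other set. It read 11.13 to 12.23 in 7 of the 8 mice labelled female there, and 5.54 in 1 untreated mouse with that label.

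Among 12393 genes, 3252 (26.2%) differed between LPS and untreated mice in a limma model, at an adjusted p under 0.05 (Benjamini-Hochberg over all genes). They were split into 1263 that rose (10.2%) and 1989 that fell (16%). In what follows, rose and fell are used of genes past this threshold. Differences of 1 or more on the log2 scale were seen for 263 of the rising and 358 of the falling genes, and the median over all genes was 0.01. Without mouse 10, 3421 genes passed (27.6%), 1269 up (10.2%) and 2152 down (17.4%). The share of rising genes among those called was 38.8%, but 49.7% after each array was centred on its median and 47.7% after quantile normalisation, so the balance of rises and falls depends on the scaling. All 6 LPS mice lay above all 6 untreated mice for 449 genes (3.62%) and below them for 731 (5.9%). Without mouse 10 these counts were 630 (5.08%) and 1121 (9.05%).

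The lists of genes compared next, 37 in number, group the response by role, and the plot of list shares sets their counts beside the background of all genes. Most measured members of the interferon, NF-kB, chemokine, metabolic and granule lists rose, and most of the T cell and MHC class II lists fell. After centring and after quantile normalisation the list medians kept their direction, except those of chemoattractant receptors (0.01 as deposited, -0.05 after quantile normalisation), JAK-STAT genes (-0.06 and 0.1) and the 4 sex-linked genes (0.01 and -0.04).

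**Figure D1:**
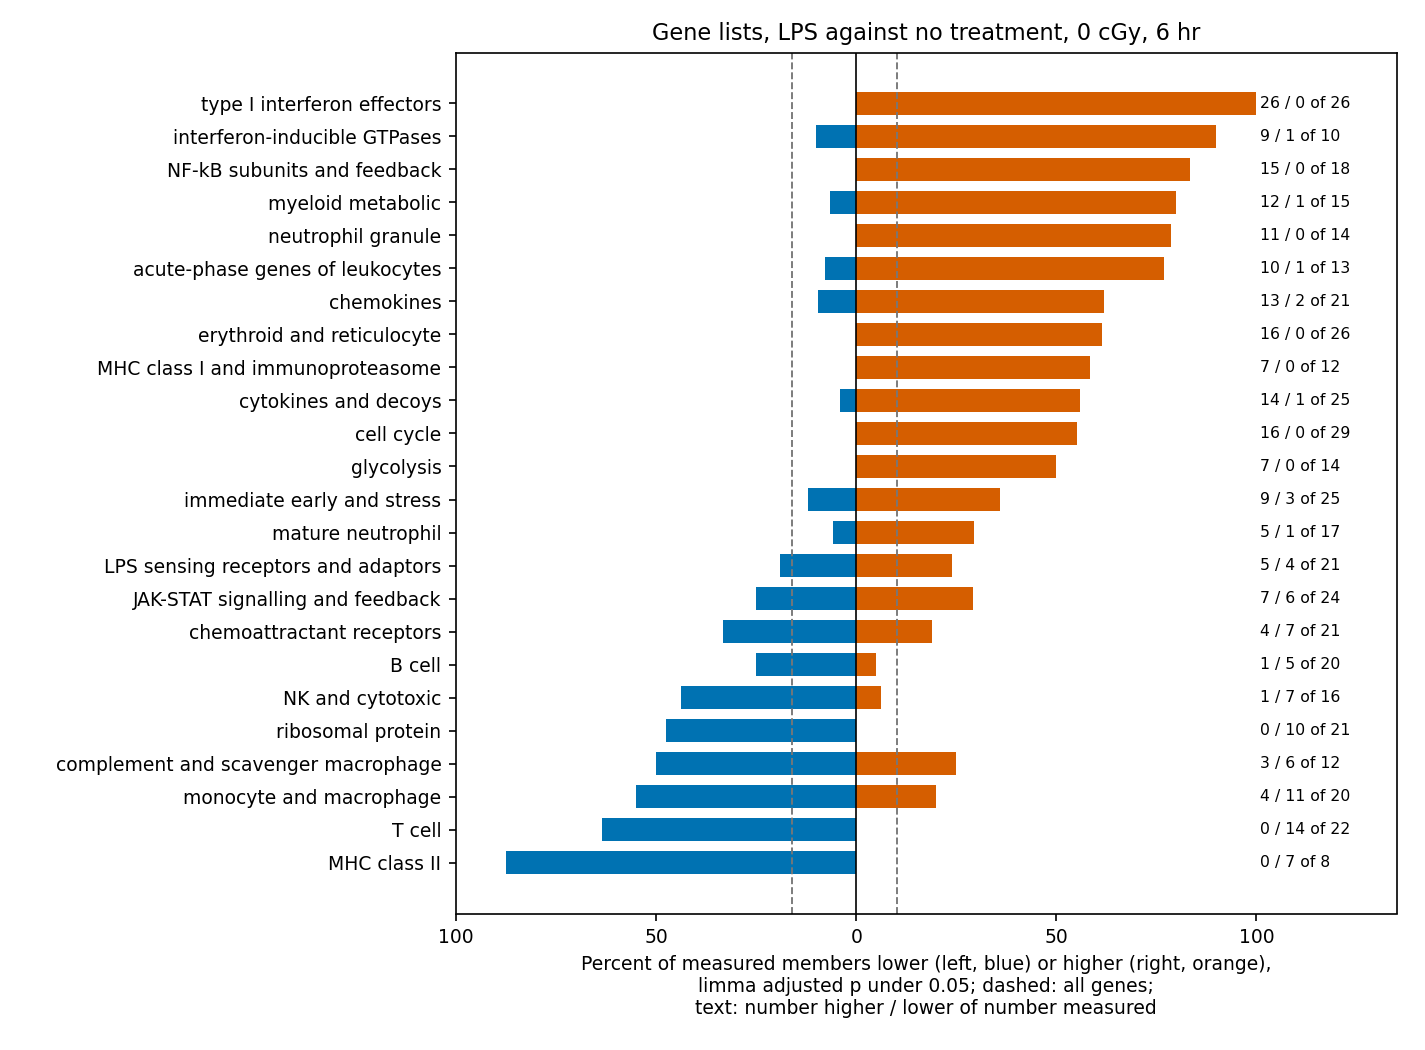
Percent of the measured members of 24 gene lists, selected from the 37, that were higher (orange, to the right) or lower (blue, to the left) after LPS at an adjusted p under 0.05 in limma, 6 mice against 6, all mice in. Dashed lines mark the shares over all 12393 genes (10.2% up, 16% down), and the numbers at the right give members higher and lower of members measured; type I interferon effectors stand at 26 of 26 higher and MHC class II at 7 of 8 lower.

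Genes that sense LPS divided. Of 21 measured receptors and adaptors, 5 rose, 4 fell and the median was 0.12. Cd14, the co-receptor that loads LPS onto Tlr4, had signals from 6.42 through a median of 7.82 to 9.23 in untreated mice, and from 10.32 through 10.65 to 11.23 after LPS. The groups did not overlap, and the rise was 2.88 (SE 0.34, limma adjusted p 4.59e-09), or 7.34-fold. Tlr4 itself read 5.10, 6.24 and 6.93 (lowest, median, highest) in untreated mice and 5.66, 6.14 and 6.43 after LPS, a difference of -0.05 (SE 0.25, adjusted p 0.915). Its ranges overlapped fully, and its second probe set gave 0.76. Tlr2, a receptor for bacterial lipoproteins, rose by 1.29, the adaptor Myd88 by 0.50 and Trem1, an amplifying receptor of neutrophils and monocytes, by 3.95. The C-type lectin Clec4e rose by 1.32, whereas Clec7a (-1.89), the receptor for fungal beta-glucan, Tlr1 (-0.95) and the B cell accessory pair Cd180 (-1.03) and Ly86 (-0.88) fell.

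Of 18 measured NF-kB subunits and feedback genes, 15 rose and none fell, with a median of 0.96 (13 rose without mouse 10). The inhibitor Nfkbia, which is itself a target of NF-kB, had a median of 11.11 and at most 11.33 in untreated mice, and read 12.24, 12.36 and 12.52 after LPS. All LPS mice lay above all untreated mice, and the difference was 1.22 (SE 0.15, limma adjusted p 1.06e-08). Nfkbiz, a nuclear cofactor for secondary response genes, rose by 1.87, the kinase Ikbke by 1.76, the ubiquitin-binding inhibitor Tnip1 by 1.62 and the adhesion molecule Icam1 by 1.58. Subunits Rela (0.02), Rel (0.22) and Nfkb2 (-0.09) did not pass, while Relb rose by 0.96. Tnfaip3, a deubiquitinase that ends the signal, was close to the threshold. Its signals ran from 3.92 through 4.16 to 4.81 in untreated mice and from 4.25 through 4.65 to 4.82 after LPS, and its difference of 0.40 had a limma adjusted p of 0.0278, or 0.0734 without mouse 10.

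Cytokine genes rose unevenly. Of 25 measured cytokines and decoys, 14 rose and 1 fell, with a median of 0.77. Il6, the fever and acute-phase cytokine, read 3.37, 4.02 and 4.57 in untreated mice and 5.48, 8.17 and 8.83 after LPS. The lowest LPS mouse, mouse 3, stood well apart from the other 5 but above every untreated mouse, and the difference was 3.79 (SE 0.60, limma adjusted p 3.24e-06). Tnf read 5.70, 5.93 and 6.04 untreated and 7.25, 7.60 and 7.92 after LPS. The groups did not overlap, and Tnf rose by 1.63 (SE 0.13). Il1b, the fever-inducing product of the inflammasome pathway, read 8.99, 9.76 and 11.35 untreated and 11.10, 11.53 and 11.81 after LPS. Mouse 10 held the highest untreated value, so the groups overlapped with it (1.70) and were apart without it (2.01).

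Restraining cytokines were among the genes with the larger rises. Il1rn, the secreted antagonist of the interleukin-1 receptor, read 5.53, 6.40 and 8.24 in untreated mice and 10.90, 11.17 and 11.20 after LPS. This was a rise of 4.63 (SE 0.27, limma adjusted p 1.57e-18), or 24.7-fold, without overlap. Its 3 probe sets gave differences of 3.14 to 4.63. Il10, which damps myeloid activation, read 3.41, 3.68 and 3.75 untreated and 5.89, 6.16 and 6.45 after LPS, and Il1r2, a decoy receptor, rose by 3.34. Ifng, the macrophage-activating cytokine of NK and T cells, read 3.32, 3.74 and 4.18 untreated and 4.62, 7.57 and 8.69 after LPS. Its LPS values were the most spread of the cytokines given here, with mice 6 and 9 lowest (4.62 and 5.42), yet they did not overlap the untreated ones (difference 3.26, SE 0.47). Ifnb1, the interferon that starts the type I response, read 4.69 to 5.34 untreated and 4.50 to 5.43 after LPS, with a difference of 0.03 (limma adjusted p 0.887). Il12b (0.19), Csf2 (0.08) and Il23a (0.28) also did not pass, and Tnfsf13b, the B cell survival factor, fell by 0.85.

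Of 21 measured chemokines, 13 rose and 2 fell, with a median of 1.40. Cxcl2, which draws neutrophils, read 5.40, 5.58 and 7.89 untreated and 10.97, 11.31 and 11.52 after LPS, a rise of 5.20 (SE 0.51, limma adjusted p 3.78e-11). Mouse 10 again held the highest untreated value. Cxcl10, an interferon-induced attractant of activated T cells, read 4.75, 5.21 and 5.85 untreated and 9.11, 10.35 and 11.36 after LPS, a 34.3-fold rise with wide separation. Ccl3, a monocyte and lymphocyte attractant, rose from a range of 4.40 to 5.36 to one of 9.10 to 9.81 (difference 4.60, SE 0.20). Cxcl9, a partner of Cxcl10 at the same receptor, rose by 3.74, Ccl12 by 4.15, Ccl2, the ligand of the monocyte receptor Ccr2, by 2.90 and Cxcl1 by 3.41. The myeloid chemokines Ccl6 (-1.21) and Ccl9 (-1.28) fell.

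Of 21 chemoattractant receptors, 4 rose and 7 fell, with a median of 0.01. Fpr2, a receptor for formylated peptides, rose by 2.33 and Ccrl2, which presents chemerin, by 2.46. Ccr2 fell by 2.77, and the lymphocyte receptors Cxcr3 (-1.28), Cxcr6 (-1.39), Ccr6 (-1.04) and Ccr7 (-1.02) fell as well.

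Some promoters of these genes, fewer than those without, hold the letters that NF-kB family factors are known to bind. The searched core was GGANTTTCC, read on both strands of the 250 bases before each start. It was found in 5 of 16 NF-kB list promoters (31.2%), 4 of 20 cytokine promoters (20%) and 3 of 13 chemokine promoters (23.1%), against 1.45% of 9887 promoters of genes on the array and 1.25% of 27025 in the RefSeq table (build GRCm38.p6). A match describes the letters only. The stretches that follow, from RefSeq, run 5′ to 3′ on the gene's strand, with 25 bases on each side of the outermost matches where the window allows. Capitals mark matches on either strand to this core or to the interferon core GAAANNGAA, described further on. They are shown because these genes are the NF-kB inhibitor and those with some of the larger rises.
Nfkbia, chr12:55492648-55492850, minus strand, matches 178 to 29 bases before the start: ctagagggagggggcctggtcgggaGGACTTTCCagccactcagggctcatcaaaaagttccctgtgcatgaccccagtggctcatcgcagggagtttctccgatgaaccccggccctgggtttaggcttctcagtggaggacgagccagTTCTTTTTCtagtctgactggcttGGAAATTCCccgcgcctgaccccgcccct
Il6, chr5:30013046-30013104, plus strand, match 43 bases before the start: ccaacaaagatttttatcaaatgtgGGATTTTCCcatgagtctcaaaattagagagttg
Cxcl2, chr5:90903778-90903836, plus strand, match 96 bases before the start: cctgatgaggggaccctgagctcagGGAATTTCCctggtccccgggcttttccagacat
Acod1, chr14:103046902-103046960, plus strand, match 85 bases before the start: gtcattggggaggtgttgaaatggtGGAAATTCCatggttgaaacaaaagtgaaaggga
Nfkbia holds 2 of these cores, and Cxcl10, printed with the interferon genes, holds 1.

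**Figure D2:**
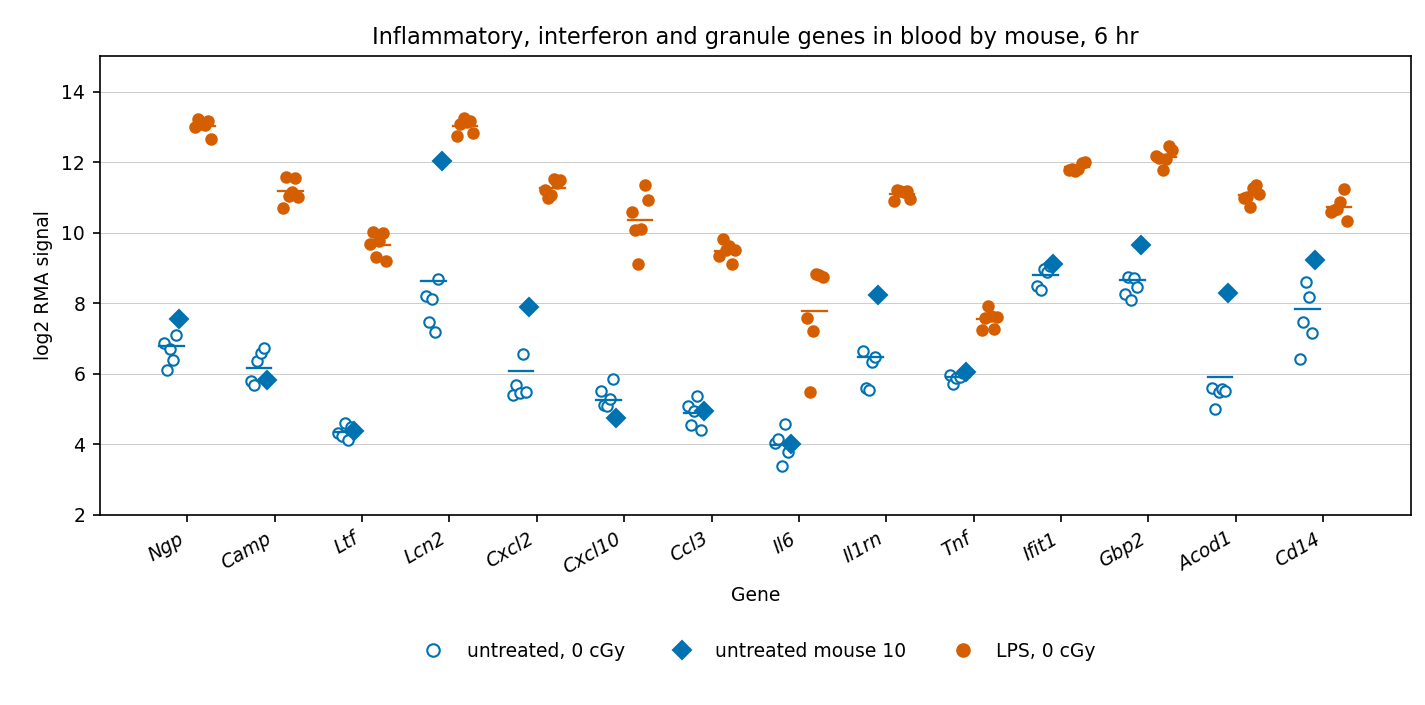
Log2 RMA signal of 14 rising genes in each of the 6 LPS mice (filled orange), the untreated mice 1, 2, 3, 8 and 9 (open blue) and the untreated mouse 10 (blue diamond), with a line at each group's mean over its 6 mice. The groups do not overlap for any of these genes; mouse 10 lies closest to the LPS mice for Lcn2 (12.04 against a lowest LPS value of 12.73).

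Interferon genes gave the most complete response among the lists. All 26 measured type I interferon effectors rose, with a median of 1.82, and 25 of the 26 had no overlap between groups. Ifit1, which binds viral RNA lacking a self cap, read 8.38, 8.92 and 9.10 untreated and 11.76, 11.81 and 12.01 after LPS. Its LPS values spanned a narrower range than the untreated ones, and the rise was 3.05 (SE 0.19, limma adjusted p 1.36e-17), or 8.27-fold. Ifit3, its partner, read 5.28, 5.70 and 6.94 untreated and 9.23, 9.62 and 10.01 after LPS. Usp18, which removes Isg15 and closes the receptor, rose by 3.15, Cmpk2 by 3.13, Oasl1 by 2.95 and Zbp1, a sensor of left-handed nucleic acid, by 2.62. The 2 probe sets of Cmpk2 gave 1.36 and 3.13. Irf7, the factor that amplifies type I interferon, had the smaller rise of 0.96, from a range of 10.66 to 11.37 to one of 11.87 to 12.26. The smallest rises of the list were those of Isg20 (0.19) and Rsad2 (0.24).

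Of 10 measured interferon-inducible GTPases, which attack vacuoles of intracellular pathogens, 9 rose and 1 fell, with a median of 1.87. Gbp2 read 8.10, 8.58 and 9.64 untreated and 11.78, 12.15 and 12.45 after LPS, a rise of 3.51 (SE 0.17, limma adjusted p 1.45e-21), and its 2 probe sets gave 3.51 and 3.53. Iigp1 rose by 4.25, Gbp6 by 3.24 and Irgm1 by 2.64. Gbp2b, a close relative of Gbp2, went the other way, from 5.55, 7.21 and 8.48 untreated to 4.37, 4.89 and 5.85 after LPS. Its groups overlapped slightly, and the fall was 2.17 (SE 0.46, limma adjusted p 0.000275). Because Gbp genes are similar in sequence, cross-hybridisation between their probe sets was not tested. In the sex and treatment set the LPS difference of Gbp2b was -0.04, and the test of the difference between sets had an adjusted p of 0.0619.

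The core of the interferon-stimulated response element, GAAANNGAA read on both strands, was found in 9 of 18 type I interferon promoters (50%) and 7 of 8 GTPase promoters (87.5%). It was found in 7.56% of promoters of genes on the array and 8.18% of the RefSeq table. In the NF-kB list it was found in 1 of 16 (6.25%), in cytokines in 3 of 20 (15%) and in chemokines in 3 of 13 (23.1%). Among the 20 largest rises, 18 had a promoter in the table, and each core was found in 4 of them (22.2%). Among the 15 largest falls, of which 10 had one, the interferon core was found in 2 (20%) and the NF-kB core in none. The promoters shown are those of the antiviral pair, of members of both GTPase families and of the chemokines Cxcl10 and Cxcl9, with capitals marking matches to either core.
Ifit1, chr19:34640755-34640838, plus strand, matches 109 to 84 bases before the start: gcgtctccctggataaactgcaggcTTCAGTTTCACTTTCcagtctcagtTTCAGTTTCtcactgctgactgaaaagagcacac
Ifit3, chr19:34583349-34583460, plus strand, matches 155 to 102 bases before the start: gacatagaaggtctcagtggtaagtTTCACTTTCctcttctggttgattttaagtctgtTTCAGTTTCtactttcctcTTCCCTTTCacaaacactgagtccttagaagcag
Gbp2, chr3:142620580-142620638, plus strand, match 58 bases before the start: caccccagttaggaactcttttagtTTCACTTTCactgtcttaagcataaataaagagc
Irgm1, chr11:48871421-48871475, minus strand, matches 30 to 24 bases before the start: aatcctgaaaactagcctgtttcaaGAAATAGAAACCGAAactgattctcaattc
Cxcl10, chr5:92349014-92349127, minus strand, matches 213 to 158 bases before the start: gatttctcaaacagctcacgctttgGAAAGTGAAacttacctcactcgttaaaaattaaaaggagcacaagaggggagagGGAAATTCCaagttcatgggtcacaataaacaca
Cxcl9, chr5:92328221-92328279, minus strand, match 175 bases before the start: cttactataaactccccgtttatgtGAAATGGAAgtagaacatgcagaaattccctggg
Ifit1 and Ifit3 each hold 3 matches to the interferon core, of which 2 overlap in Ifit1, as do both of those in Irgm1.

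Feedback and signalling genes of the JAK-STAT pathway split into 7 that rose and 6 that fell of 24, with a median of -0.06. Socs1, the inhibitor of interferon receptors, read 6.15, 6.40 and 6.61 untreated and 8.14, 9.24 and 9.47 after LPS, without overlap (difference 2.63). Socs3, which inhibits signalling by interleukin-6 and GCSF receptors, read 6.53, 7.67 and 10.11 untreated and 9.43, 9.83 and 10.46 after LPS. The highest untreated value was again mouse 10, and the rise was 2.00 with it and 2.45 without it. Ifngr1 (-0.90), the interferon-gamma receptor, and Il6st (-0.53), the shared receptor chain of the interleukin-6 family, fell. In the immediate early and stress list 9 of 25 rose and 3 fell (median 0.36). Jun rose by 2.14, the early response genes Ier3 and Gadd45b by 2.46 each and Nr4a1 by 1.91, whereas Fos fell by 1.61 and Klf4, a factor of inflammatory monocytes, by 2.27.

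Metabolic genes of activated myeloid cells rose in 12 of 15 cases and fell in 1 (median 1.50). Acod1, which makes itaconate, read 4.99, 5.54 and 8.28 untreated and 10.74, 11.05 and 11.36 after LPS. The groups were well apart even with mouse 10 at 8.28, and the rise of 5.17 (SE 0.30, limma adjusted p 1.57e-18) became 5.65 without it. Upp1, a uridine-cleaving enzyme, rose from 5.10 to 7.48 untreated to 9.87 to 10.72 after LPS (4.48). Lipg, an endothelial-type lipase that is not on any list, had a rise exceeded only by that of Ngp (5.34, SE 0.22, limma adjusted p 1.06e-23), from 4.02, 4.20 and 5.39 to 9.49, 9.79 and 9.99. Its 3 probe sets differed, from 0.18 to 5.34, and the value is that of the brightest. Ptges (1.96) and Ptgs2 (1.56), which make prostaglandin E, rose, while Nos2 (0.19) and Arg1 (-0.32) did not pass. Of 14 glycolysis genes 7 rose (median 0.51), led by Pfkfb3 (1.93), an activator of the pathway, and Hk2 (0.95), a hexokinase.

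Of 13 acute-phase genes that leukocytes express, 10 rose and 1 fell, with a median of 1.24, or 11 and none with 1.64 without mouse 10. The list includes Hp, Lrg1 and the metallothioneins, which liver also expresses, and Alb was higher in untreated mice 2, 3, 8 and 10 than in any LPS mouse; its part in these values was not tested. Lcn2, an iron-chelator scavenger of neutrophil granules, read 7.19, 8.16 and 12.04 untreated and 12.73, 13.11 and 13.25 after LPS. Mouse 10 at 12.04 stood far above the next untreated mouse (8.69), and the rise of 4.42 (SE 0.37, limma adjusted p 5.1e-13) became 5.11 without it. Mt2 rose by 3.31 and Stfa3 by 3.02. The heat shock chaperones Hspa1b (1.98) and Hspa1a (1.62) rose, within a list of 15 in which 5 rose and 2 fell.

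Neutrophil granule genes, which are transcribed in marrow precursors, rose in 11 of 14 cases and fell in none, with a median of 1.78. Ngp, neutrophilic granule protein, had the largest rise among genes past the threshold. It read 6.11, 6.79 and 7.56 in untreated mice and 12.66, 13.06 and 13.21 after LPS, a difference of 6.24 (SE 0.30, limma adjusted p 2.02e-21), or 75.4-fold, and the groups were far apart. Ltf, lactoferrin, read 4.12, 4.35 and 4.61 untreated and 9.20, 9.72 and 10.01 after LPS. Camp, the precursor of cathelicidin, rose by 5.01, from 5.69, 6.10 and 6.73 to 10.70, 11.09 and 11.58. For both of these specific granule genes mouse 10 lay within the range of the other untreated mice. The azurophil granule genes of earlier precursors rose less, Mpo by 2.12, Ctsg by 1.71 and Elane by 0.63, and Prtn3 (-0.72) did not pass.

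Genes of mature neutrophils moved less than granule genes. Of 17, 5 rose and 1 fell with all mice (median 0.36), and 10 rose and 1 fell without mouse 10 (median 0.73), in which all 17 were above the other untreated mice. S100a8, a subunit of calprotectin, read 11.97, 12.90 and 14.10 untreated and 13.77, 13.90 and 13.97 after LPS, so the untreated mouse 10 was higher than every LPS mouse. Mmp8, neutrophil collagenase, rose by 1.51 and G0s2, a lipase inhibitor, by 1.52, while Padi4 (-0.93), which citrullinates histones, fell. Csf3r (-0.45), the GCSF receptor, did not pass.

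Monocyte and macrophage genes fell in 11 of 20 cases and rose in 4, with a median of -0.58. Ccr2, the receptor that marks inflammatory monocytes, read 8.85, 10.01 and 10.70 untreated and 6.63, 7.08 and 7.57 after LPS. The groups did not overlap, and the fall was 2.77 (SE 0.30, limma adjusted p 6.61e-10), or 6.83-fold. Csf1r, the receptor for the monocyte growth factor, read 10.19, 10.34 and 11.01 untreated and 8.15, 8.74 and 9.67 after LPS, also without overlap. The pan-macrophage gene Adgre1 fell by 1.69, Cd68 by 1.27 and lysozyme Lyz2 by 1.24. The 4 that rose were the Fc receptors Fcgr1 (2.13) and Fcgr4 (2.19), Nr4a1 (1.91), which marks patrolling monocytes and responds early to stimuli, and Ms4a6d (1.66).

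The genes with the 2 largest falls past the threshold, Cd5l and Vsig4, are macrophage genes. Of 12 complement and scavenger genes, 6 fell and 3 rose (median -0.57), and 4 fell (median -0.35) without untreated mice 2, 3 and 10. The list's mean level, relative to untreated mice 1, 2, 3, 8 and 9, differed among untreated mice. It was -0.46 and -0.26 in mice 1 and 9, which were low in Alb, within the LPS range of -1.29 to 0.02. In mouse 10, the highest in Alb, it was 0.96. In mice 2, 3 and 8 it was 0.21, 0.18 and 0.33, with Alb lower in mouse 8 than in mice 2 and 3. The part of liver RNA in these values was not tested. Cd5l, a soluble scavenger protein of tissue macrophages, read 9.43, 10.33 and 11.67 untreated and 5.73, 6.56 and 8.22 after LPS. All LPS mice were below all untreated mice, and the fall of 3.61 (SE 0.57, limma adjusted p 2.57e-06) was 12.2-fold. Vsig4, the complement receptor of resident macrophages, read 7.02, 8.30 and 9.42 untreated and 4.28, 4.69 and 6.12 after LPS (difference -3.40). C1qa, a chain of complement C1q, fell by 2.54 with overlapping groups (8.57 to 10.85 untreated, 5.36 to 9.29 after LPS), and its partners C1qb (-2.40) and C1qc (-2.32) fell beside it. Cfb, complement factor B, rose by 2.19 and the haem-degrading enzyme Hmox1 by 0.89, whereas the iron exporter Slc40a1 fell by 1.50. Hfe, which regulates iron uptake, was the most evenly lowered of these genes, from 7.54, 7.81 and 8.02 to 4.33, 4.95 and 5.15 (difference -2.90, SE 0.19). Its second probe set gave -0.16. The lipid enzymes Alox15 (-3.06), Hpgd (-2.41) and Ltc4s (-2.43) fell too, as did Idh1 (-2.87) and Wnt2 (-2.80). The second probe set of Hpgd gave -0.71.

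**Figure D3:**
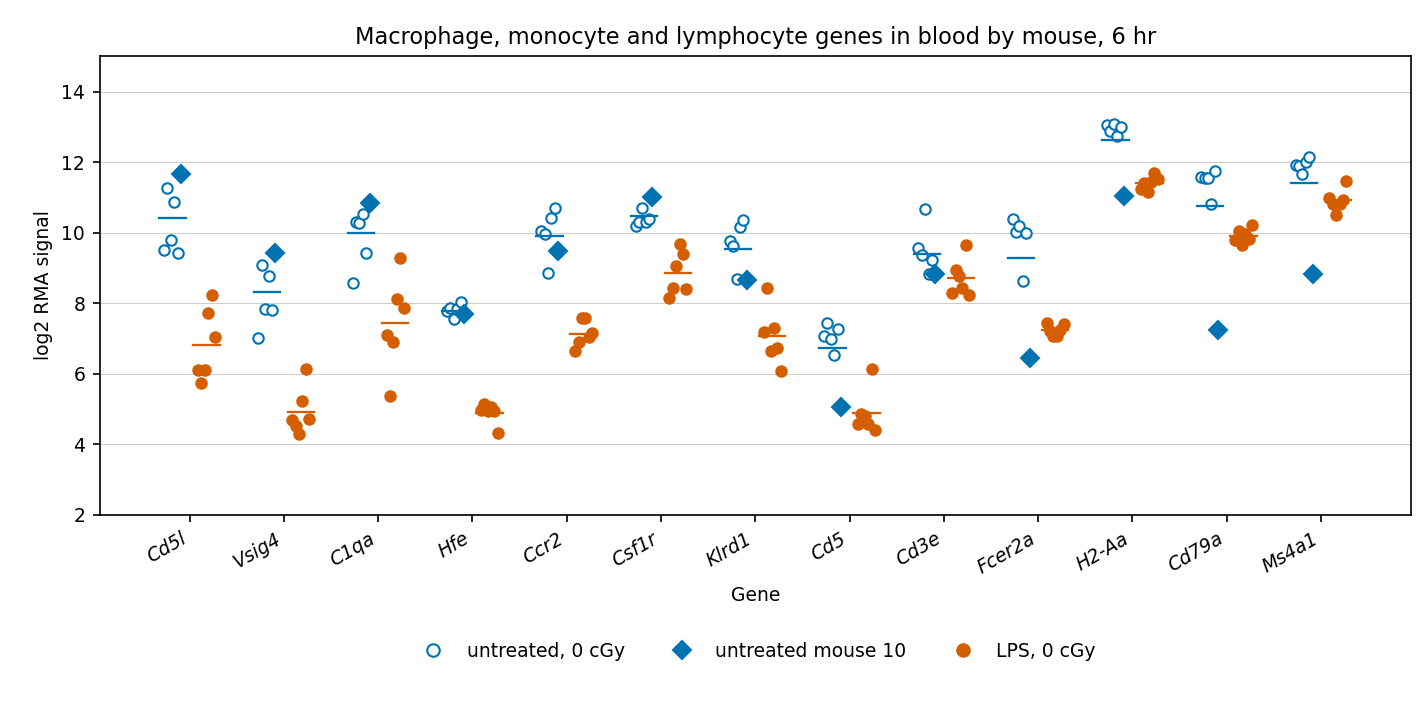
Log2 RMA signal of 13 macrophage, monocyte and lymphocyte genes in each of the 6 LPS mice (filled orange), the untreated mice 1, 2, 3, 8 and 9 (open blue) and the untreated mouse 10 (blue diamond), with a line at each group's mean over its 6 mice. For Cd79a, Ms4a1, H2-Aa and Fcer2a mouse 10 lies below all LPS mice, while for Cd5l, Vsig4, C1qa and Csf1r it is the highest mouse.

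The B cell values depended on mouse 10. Of 20 B cell genes, 5 fell and 1 rose with all mice (median -0.48), and 12 fell and 1 rose without mouse 10 (median -0.97). Cd79a, a signalling chain of the B cell receptor, read 7.23, 11.54 and 11.74 (lowest, median, highest) untreated and 9.66, 9.88 and 10.21 after LPS. The lowest untreated value was mouse 10, and without it the LPS mice lay below all untreated mice. The difference of -0.83 (limma adjusted p 0.158) was -1.54 without it (adjusted p 7.98e-05). Ms4a1, which encodes CD20, gave -0.49 (adjusted p 0.403) and -1.01 without mouse 10 (adjusted p 0.0226). Fcer2a (CD23), the low affinity IgE receptor, and Cr2, a complement receptor of mature B cells, fell with and without that mouse, by 2.03 and 1.72 with it. The second probe set of Fcer2a gave -0.91 with all mice. Pax5, the B lineage factor, rose by 0.32.

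Of 8 genes of MHC class II antigen presentation, 7 fell with all mice (median -1.27), and 8 without mouse 10 (median -1.69). H2-Aa read 11.03, 12.94 and 13.08 untreated and 11.15, 11.43 and 11.68 after LPS. Mouse 10 lay below all LPS mice, and the other 5 untreated mice above them. Ciita, the transactivator of the family, fell (-1.41 without mouse 10), as did H2-DMa, which loads peptide (-1.53 with all mice). MHC class I genes and the immunoproteasome went the other way in 7 of 12 cases (median 0.55), led by Tapbp (1.24) and Tap1 (1.03) of the peptide loading complex. Without mouse 10, 6 of them rose and 1 fell (median 0.46). The 4 probe sets of Tap1 gave differences of 0.14 to 1.03.

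T cell genes fell in 14 of 22 cases and rose in none, with or without mouse 10 (medians -0.68 and -0.82). Cd3e, a chain of the T cell receptor complex, read 8.82, 9.29 and 10.66 untreated and 8.23, 8.60 and 9.65 after LPS, with overlap and a fall of 0.69 (SE 0.22, limma adjusted p 0.0143). Cd5, a brake on receptor signalling, read 5.05, 7.02 and 7.45 untreated and 4.41, 4.69 and 6.13 after LPS. LPS mouse 8 was the highest LPS mouse for both genes. Its mean over the T cell list was -0.02 relative to untreated mice 1, 2, 3, 8 and 9, against -0.84 to -1.26 in the other LPS mice. Thy1 fell by 1.88 and Cd3g by 1.63, while Cd4 (0.13) and Cd8a (-0.10) did not pass.

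Of 16 NK and cytotoxic genes, 7 fell and 1 rose (median -0.71). Klrd1, a chain of inhibitory and activating NK receptors, read 8.65, 9.69 and 10.36 untreated and 6.08, 6.95 and 8.44 after LPS, without overlap (difference -2.48). Gzmb, the granzyme made on activation, was the one that rose, from 6.58, 7.82 and 8.27 to 8.50, 9.99 and 11.07 (difference 2.11, SE 0.35). Prf1, which forms the pores granzymes enter through, did not differ beyond the spread (-0.08, adjusted p 0.85). Among genes of lymphocyte homing and survival, the exit receptor S1pr1 (-1.35) and the integrin Itgb7 (-1.24) fell and the death receptor Fas rose (1.70), in a list of 13 with 3 up and 5 down.

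The plot of list levels by mouse shows where the difference rests on 1 library. For B cell genes the LPS mice ranged from -0.60 to -1.27, below untreated mice 1, 2, 3, 8 and 9 (-0.35 to 0.19) and above mouse 10. For type I interferon effectors they ranged from 1.74 to 2.19, against -0.09 to 0.14 in those 5 mice and 0.57 in mouse 10. The interferon list separated the groups whether mouse 10 was counted or not, and the B cell list only without it. For p53 targets the LPS mice (0.14 to 0.31) were above the 5 untreated mice (-0.15 to 0.06), with 7 of 24 up and 6 down in the test (10 and 4 without mouse 10). Cdkn1a rose by 0.81 (limma adjusted p 0.0429), or by 1.34 without mouse 10, from 7.03 to 7.47 in the 5 mice to 8.19 to 9.36 after LPS.

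Red cell genes rose in 16 of 26 cases and fell in none, with a median of 0.52. Rhag, a membrane protein of the Rh complex, read 6.83, 7.26 and 7.41 untreated and 8.63, 8.95 and 9.34 after LPS. The groups were apart by more than their ranges, and the rise was 1.80 (SE 0.24). Ermap rose by 1.38 and Kel, a blood group protease, by 1.18. Alas2, which starts haem synthesis in erythroid cells, read 14.11 to 14.48 untreated and 14.36 to 14.46 after LPS, near the top of the scale, and did not pass (0.11, limma adjusted p 0.131). Of 5 globin genes 2 rose, but the RNA had been depleted of globin, so these values bear on what was left.

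Cell cycle genes rose in 16 of 29 cases and fell in none (median 0.48). Mki67, the proliferation marker, read 6.58, 6.67 and 7.46 untreated and 8.20, 8.49 and 9.77 after LPS, without overlap (difference 1.91, SE 0.25). Members of mitosis such as Ccnb2 (1.38) and Birc5 (1.20) rose, while 6 of 6 replication helicase genes (Mcm2 to Mcm7) lay between -0.35 and 0.45 and did not pass. Ribosomal protein genes fell in 10 of 21 cases and rose in none (median -0.39). Of 17 platelet genes none passed with all mice, with a median of 0.14, and 3 rose without mouse 10.

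Of 14 genes of eosinophils, basophils and mast cells, 4 rose and 3 fell. Prg2, eosinophil major basic protein, read 3.26, 3.77 and 3.99 untreated and 5.71, 7.15 and 8.14 after LPS, a rise of 3.33 (SE 0.22, limma adjusted p 1.28e-16) without overlap. Mcpt8, a basophil protease, rose by 1.63 and Epx, eosinophil peroxidase, by 0.86, as did Prg3 (0.95), a relative of Prg2. Those that fell were the mast cell proteases Cpa3 (-1.93) and Cma1 (-2.01) and the lipid enzyme Alox15 (-3.06). Of 7 plasma cell genes 1 rose, and of 10 dendritic cell genes 2 rose and 3 fell.

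LPS was also set directly against GCSF, each without radiation, which asks what endotoxin does that a neutrophil growth factor alone does not. This comparison shares the 6 LPS mice with the main one but uses no untreated mouse. Between the agents 2175 genes were higher after LPS (17.6%) and 2427 lower (19.6%). The granule genes were higher after LPS in 10 of 14 cases, and mature neutrophil genes in 1 of 17, with 4 lower. Ngp was 8.66 to 10.21 after GCSF and 12.66 to 13.21 after LPS (difference 3.64), and Lcn2 was 10.63 to 11.78 after GCSF (1.64). Interferon effectors were higher after LPS in 25 of 26 cases (median 1.70) and T cell genes lower in 18 of 22. The 5 largest differences upward were those of Cxcl10 (5.56), Cxcl2 (5.12), Lipg (4.84) and the gland genes Obp1a (5.06) and Mucl2 (4.89). Obp1a ranged from 2.67 to 12.32 among the LPS mice. The 5 largest downward were liver genes, Alb (-5.62), Serpina1c (-5.60), Serpina1b (-5.46), Cyp3a11 (-5.43) and Apoc3 (-5.06). Alb read 9.56 to 13.04 in the GCSF mice and at most 5.95 in the LPS mice, and with Alb as a covariate 4034 genes were called against 4602 without, of which 3481 were called in both fits in the same direction and 7 in the opposite one.

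The next question was whether the response to LPS differed in irradiated mice. The LPS difference was computed at each dose against that dose's own untreated mice, so the 3 differences share no mouse, although the differences between them share the 0 cGy mice. At 150 cGy 16 genes (0.129%) differed from 0 cGy in their LPS difference, 2 higher and 14 lower, or 117 (0.944%) without mouse 10. The share of higher ones was 12.5%, and 29.4% of 17 after quantile normalisation. At 600 cGy there were 390 (3.15%), 73 with a higher and 317 with a lower difference, or 523 (4.22%) without mouse 10. The count at 600 cGy was 243 without LPS mouse 8 at 0 cGy, 244 without untreated mouse 4 at 600 cGy and 258 without untreated mouse 8 at 0 cGy.

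Of all 12393 genes, 1263, 1107 and 2892 rose with LPS at 0, 150 and 600 cGy, and 1989, 1812 and 2989 fell. Counts within lists at the 3 doses therefore stand against unlike backgrounds. Of 26 interferon effectors, 26, 25 and 23 rose with LPS at 0, 150 and 600 cGy, and of 18 NF-kB genes 15, 16 and 12. Of 25 cytokines and decoys 14, 15 and 14 rose, and of 21 chemokines 13, 13 and 15. For Cxcl10 the LPS differences were 5.10, 5.66 and 6.31 at 0, 150 and 600 cGy, for Ifit1 3.05, 3.65 and 3.32, and for Tnf 1.63, 1.83 and 1.80. Cxcl10 was past the threshold for the difference between 600 and 0 cGy (limma adjusted p 0.0409), and Ifit1 and Tnf were not. The LPS difference was lower at 600 than at 0 cGy for 2 of 26 interferon effectors (5 without mouse 10), 2 of 18 NF-kB genes, 4 of 25 cytokines and decoys, 3 of 15 myeloid metabolic genes and 3 of 13 acute-phase genes. Neutrophil genes separated the doses more. Of 14 granule genes 8 and of 17 mature neutrophil genes 11 had a lower LPS difference at 600 than at 0 cGy, and none a higher one (9 and 15 without mouse 10). Lcn2 had differences of 4.42, 2.13 and 1.16, a change of -3.26 (SE 0.54, limma adjusted p 0.000599). Its mean after LPS was 13.04, 13.27 and 13.17 at the 3 doses, and its mean in untreated mice was 8.62, 11.15 and 12.01. For this gene the doses differed most in their untreated mice.

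Prg2 followed another pattern. Its LPS difference of 3.33 at 0 cGy was 0.56 at 150 and 0.50 at 600 cGy, with untreated means of 3.69, 3.71 and 3.89 and LPS means of 7.02, 4.27 and 4.40, so the doses differed in the LPS mice. Basophil Mcpt8 (1.63, 0.27 and 0.50) was also past the threshold at both doses. Of 20 B cell genes, 10 fell with LPS at 600 cGy (median -0.97), where 2989 of all 12393 genes fell. In the test between doses, 2 of the 20 had a higher LPS difference at 600 than at 0 cGy and 1 a lower one. The median change was -0.48, or -0.23 without mouse 10. The 2 with a higher one were Fcer2a (-2.03, -1.04 and 0.15) and Cr2 (-1.72, 0.06 and -0.04). Their untreated means, 9.28, 7.90 and 6.65 for Fcer2a, were lower with dose, while its LPS means were 7.25, 6.86 and 6.80. Il1r2 (3.34, 1.80 and 0.72), Lrg1 (1.24, -0.70 and -1.52) and Foxd4 (-0.47, -2.23 and -3.23) had lower differences at 600 cGy, and Sdc4 (1.61, 1.96 and 3.18), a heparan sulfate proteoglycan, a higher one. Hpgd (-2.41, -1.32 and -0.16) and Crisp3 (-2.18, -0.35 and 0.02) were lowered by LPS at 0 cGy and had values near 0 at 600 cGy. Of 29 cell cycle genes 8, and of 14 glycolysis genes 4, had a lower LPS difference at 600 cGy.

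**Figure D4:**
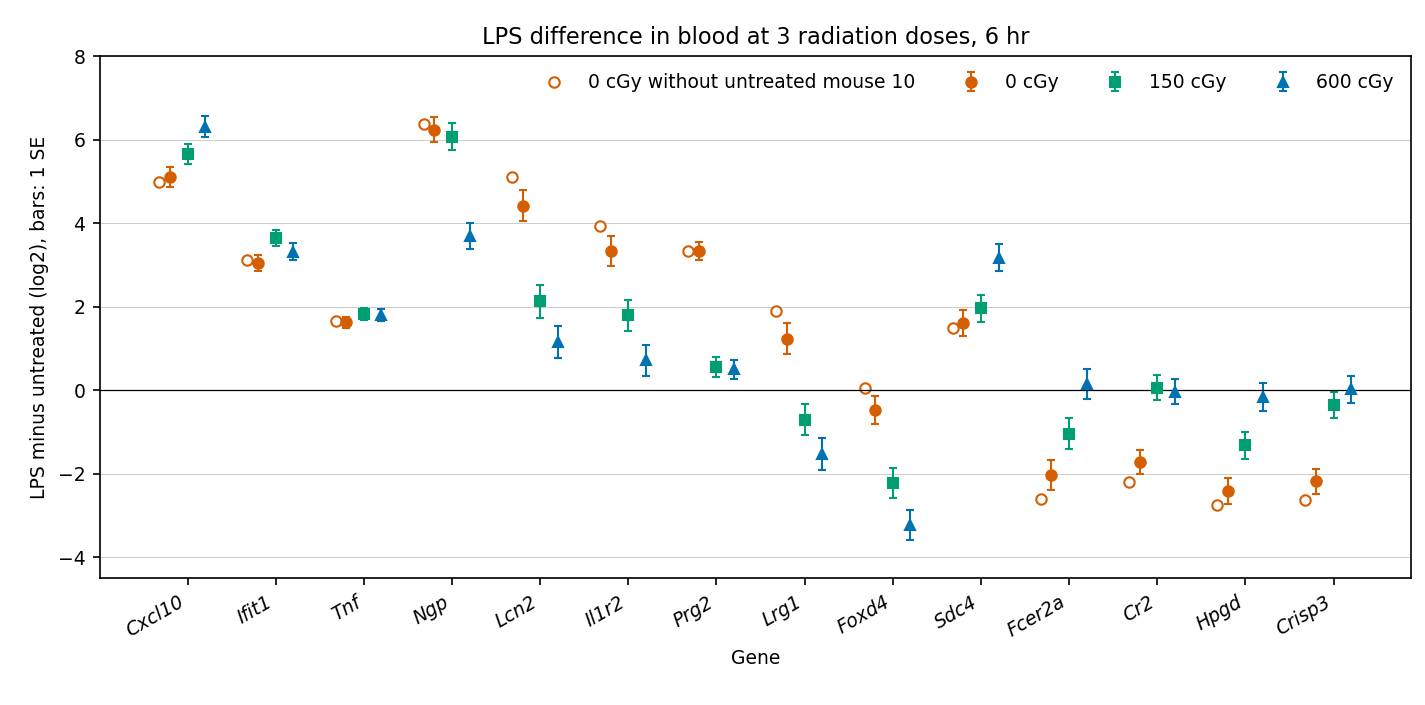
LPS minus untreated difference (log2, bars 1 SE of the limma fit) of 14 genes at 0 cGy (orange circles), 150 cGy (green squares) and 600 cGy (blue triangles), each against untreated mice of the same dose; open circles give 0 cGy without untreated mouse 10. The differences of Lcn2 are 4.42, 2.13 and 1.16 and those of Prg2 3.33, 0.56 and 0.50, while those of Tnf lie between 1.63 and 1.83.

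In the sex and treatment set, whose mice are separate from those of the small set, LPS at 0 cGy and 6 hr gave 2873 rising (23.2%) and 3025 falling genes (24.4%), as the mean of the female and male differences. Of the 3252 genes called in the small set, 2417 (74.3%) were called there in the same direction, which is 41% of that set's 5898, and 9 were called in the opposite one. Over all genes the differences of the sets correlated at r = 0.81, or 0.84 without mouse 10, as a description across genes that are not independent. Interferon effectors rose in 25 of 26 cases there and cell cycle genes in 20 of 29. B cell genes fell in 18 of 20 and T cell genes in 20 of 22. Other lists had different counts there. Complement and scavenger genes had 4 up and 1 down (median 0.15), beside 3 and 6 in the small set. MHC class I genes had 3 up and 2 down of 12, beside 7 and none, and heat shock chaperones 1 up and 4 down of 15, beside 5 and 2. These differences between lists were not tested. Ngp (5.73), Ltf (5.31) and Camp (5.15) rose there, beside 6.24, 5.30 and 5.01 in the small set.

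A test of the difference between sets named 43 genes (0.347%), or 40 (0.323%) without mouse 10. The macrophage genes with large falls in the small set had smaller ones in the other, Cd5l -1.50 and Vsig4 -0.86, but the differences between sets did not pass (adjusted p 0.241 and 0.155). Genes past the threshold included Ltc4s, leukotriene C4 synthase, with LPS differences of -2.43 and -0.11 in the small and the other set. Its untreated mice read 7.91 to 9.75 in the small set and 5.91 to 8.23 in the other, and its LPS mice 6.14 to 6.59 and 6.06 to 7.16. Wnt2 (-2.80 and -0.48), Cav1 (-1.66 and 0.06) and Tmem141 (-1.95 and -0.31) had larger falls in the small set, as did Gask1b (-1.58 and 0.13). Wnt2 and Gask1b did not pass without mouse 10 (limma adjusted p 0.0594 and 0.0679).

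Ccl12 (4.15 and 2.27) and Cxcl9 (3.74 and 1.76) had larger rises in the small set than in the mean of both sexes. In the other set Ccl12 after LPS read 6.07 to 7.65 in the 3 female mice and 3.94 to 4.83 in the 5 male mice, against 7.21 to 8.27 in the small set. Its LPS difference was 3.65 in female and 0.90 in male mice, and that of Cxcl9 was 3.10 and 0.42. Set against the female mice alone, a comparison added after the data were seen, the excess in the small set was 0.50 (SE 0.30, adjusted p 0.512) for Ccl12 and 0.64 (SE 0.50, adjusted p 0.606) for Cxcl9. For Cav1 it was -2.17 (SE 0.41, limma adjusted p 0.00434) and for Ltc4s -2.32 (SE 0.59, adjusted p 0.0554). For Tmem141 (-1.68, adjusted p 0.0411) and H2aw (1.37, adjusted p 0.0478) the call held against all female mice and was lost without the female-labelled mouse low in Xist (adjusted p 0.0962 and 0.0598). Wnt2 (-2.32, adjusted p 0.11), Gask1b (-1.71, adjusted p 0.108), Cd72 (1.41, adjusted p 0.159) and Spib (1.36, adjusted p 0.296) did not pass against female mice alone. Cav1 passed with and without that mouse (adjusted p 0.00946 without it), so of these 10 genes it alone held its call in both. Cd72 (0.40 and -1.33), Spib (0.17 and -1.75) and H2aw (0.73 and -0.47) were above the other set in their LPS difference, and Spib did not pass without mouse 10 (adjusted p 0.0634).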

How the data were processed

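RNA from blood of single mice had been hybridised to Affymetrix arrays, and the authors deposited log2 values normalised by RMA with the affy package, per the submitters' processing notes (versions and whether all arrays were normalised together are not given in the sources used here). Of 22690 probe sets, 20380 with 1 gene symbol were used, after leaving out 64 controls, 1555 with no symbol and 691 with several; each of 12393 genes was represented by its probe set with the highest mean. Differences were fitted with limma 3.58.1 in R over all 50 arrays of the 9 groups of the small set at 6 hr (41 residual degrees of freedom), 28 arrays of the other set, or 78 of both, with Benjamini-Hochberg adjustment over all genes and a threshold of 0.05. The fit was tested on simulated data. The number of arrays limits the precision; nothing says that mice were treated separately, so p-values measure the spread between these samples. Named genes are the 20 largest rises, 15 largest falls, up to 6 members of each list by p, the 5 largest each way of the other comparisons and 28 genes always given; other list members are examples chosen after their values were seen. The members and the lists were chosen with earlier results of these data known. Alternatives covered scaling, probe sets, filters, covariates and left-out mice.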

Additional observations from a re-analysis of the deposited data

Results flagged for a closer look

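For 57 genes and the correlation of arrays within their group, each in LPS and in untreated mice, 116 groups of values were tested. In 16, the gap of 1 mouse to the nearest other mouse, as a share of the group's range, passed the critical value of Dixon's test. Chance gives about 1 in 20 for independent groups not chosen by their values. Many of these genes were chosen with results of these data known, and all groups come from the same mice. That rate is therefore no background for the count. In 9 of the 16 groups the mouse was untreated mouse 10. It was high for Tlr2 (0.64), Cxcl9 (0.69), Acod1 (0.81), Upp1 (0.66), Lcn2 (0.69) and Cdkn1a (0.87), and low for Ms4a1 (0.85), Cd79a (0.80) and H2-Aa (0.83). In 4 it was another untreated mouse, high in each: mouse 8 for Tnfaip3 (0.65), mouse 3 for Ifnb1 (0.77) and Rag1 (0.69), and mouse 9 for Obp1a (0.92). In 3 it was an LPS mouse: mouse 9, low for Hfe (0.73) and Obp1a (0.63), and mouse 8, high for Cd5 (0.74).

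Some LPS differences depended on the radiation dose in the limma test of the difference itself. At 150 cGy the LPS difference was lower than at 0 cGy for Prg2 (-2.77), Rgs2 (-1.50), Mcpt8 (-1.36), Reln (-1.28) and Eif2ak1 (-1.25), and higher for Fap (1.18) and Gm20559 (1.37). At 600 cGy it was lower for Lcn2 (-3.26), Prg2 (-2.83), Foxd4 (-2.76), Lrg1 (-2.76) and Il1r2 (-2.62). It was higher there for Sdc4 (1.57), Cr2 (1.68), Fcer2a (2.19), Crisp3 (2.20) and Hpgd (2.25).

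Other LPS differences were unlike in the small set and in the mean of both sexes of the other set. The small set was lower than the sex and treatment set for Wnt2 (-2.33), Ltc4s (-2.32), Cav1 (-1.72), Gask1b (-1.71) and Tmem141 (-1.64). It was higher for H2aw (1.20), Cd72 (1.73), Ccl12 (1.87), Spib (1.92) and Cxcl9 (1.98). Of these genes, only Cav1 kept its call against female mice alone, both with and without the female-labelled mouse low in Xist. Wnt2, Gask1b and Spib did not pass when untreated mouse 10 was left out.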

How the results depend on the processing

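For LPS against no treatment at 0 cGy, the named genes kept their side of the threshold in 5485 of the values computed over the alternatives. They lost the call in 88 and gained it in 55. No named gene called in either fit of this comparison changed direction. Named genes called in neither fit were counted as kept whatever their sign. Over all genes, averaging each gene's probe sets gave some calls in the opposite direction. There were 2 for LPS against no treatment, 4 for LPS against GCSF and 8 in the sex and treatment set. The count of 3252 for LPS against no treatment ranged from 2552 (only the 2 groups) to 4703 (array weights); leaving out 1 mouse gave 2654 to 3603, and leaving out untreated mice 2, 3 and 10, chosen after seeing the data, 3055. LPS against GCSF gave 3697 to 5906 with 1 mouse left out. The difference at 150 cGy gave 11 (without untreated mouse 8) to 117 (without untreated mouse 10), and that at 600 cGy 243 to 523. The sex and treatment set gave 3769 (without female LPS replicate 2) to 6695. The 43 genes that differed between sets became 81 when the probe sets of each gene were averaged. With 1 mouse left out they ranged from 19 (female LPS replicate 2) to 128 (female LPS replicate 5). They were 25 without LPS or untreated mouse 8 of the small set, 93, 98 and 84 without male LPS replicates 3, 4 and 5, 82 without female LPS replicate 4 and 80 without male untreated replicate 5. Set against female mice alone, chosen after seeing the data, 36 genes differed, 4 of them among the 43, and 23 without the untreated one low in Xist. Where no value shows it, the cause was not tested.

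Mouse numbers were not treated as pairs in the main fit. Residuals of same-numbered LPS and untreated mice correlated at 0.08, 0.05, 0.07 and 0.20. The highest correlation of each number with another number was 0.15 to 0.47. The highest of several values tends to exceed any single value, so this cannot decide whether the numbers pair mice. With the number as a replicate block, the count for LPS was 3041, that for the difference at 150 cGy 63, at 600 cGy 648 and between sets 56.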

Other observations

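Genes of exocrine secretions varied between mice of both groups; the list was chosen after values were seen. Obp1a, an odorant-binding protein of glands, read 2.67, 9.81 and 12.32 (lowest, median, highest) after LPS and 2.96, 3.15 and 8.36 in untreated mice. Its 2 exceptions were LPS mouse 9, at 2.67, and untreated mouse 9, at 8.36. The difference was 5.24 (SE 1.72, limma adjusted p 0.0193), against 0.15 in the sex and treatment set. Of 5 such genes 4 rose, 3 without mouse 10 and none without untreated mice 2, 3 and 10.

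Genes of early lymphoid cells and progenitors, a list also chosen after values were seen, rose in 6 of 10 cases (median 0.73). Rag1, which cuts antigen receptor genes, read 4.53, 6.76 and 9.90 after LPS and 2.84, 3.13 and 7.86 in untreated mice, a rise of 2.94 (SE 0.86, limma adjusted p 0.00839). The groups overlapped through untreated mouse 3, the highest of its group.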
